A study of Homo sapiens with 8 samples.

Results

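The 9 genes described here carry out or control antigen presentation by class I molecules of the major histocompatibility complex (MHC): the heavy chain genes HLA-B, HLA-C, HLA-E and HLA-F, the light chain gene B2M, the peptide transporter genes TAP1 and TAP2, the tapasin gene TAPBP and the regulator gene NLRC5. They were taken from a list of symbols, and all 9 are among the 22808 symbols of the count table. Other class I heavy chain genes were not analysed here. The cells were RD18, an established human rhabdomyosarcoma line of the fusion-negative kind, a muscle-lineage tumour that lacks the PAX fusion genes. In 4 vehicle libraries the cells had received lipofectamine, a lipid transfection reagent, and no RNA. In 4 treated libraries they had received the microRNAs miR-449a and miR-340-5p together, and all 8 libraries were taken at 60 h. No library received a control RNA, so the microRNA pair and the presence of transfected RNA cannot be told apart. The labels do not say whether the 4 libraries of a group came from different cultures. The p-values below therefore reflect the variation among these libraries alone, and that variation may be technical.

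A class I molecule is a heavy chain paired with beta-2-microglobulin, the B2M product, and it holds a short peptide for inspection by cytotoxic T cells and natural killer cells. Peptides are cut by the proteasome, pumped into the endoplasmic reticulum by the transporter that TAP1 and TAP2 form together, and loaded with the help of tapasin and of the chaperones calreticulin, calnexin and ERp57. NLRC5 is a co-activator that acts at class I promoters through the RFX and NFY complexes, and interferons raise many genes of the pathway. Resting muscle fibres carry little class I.

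The libraries held 2567737 to 5569342 counts. Muscle lineage markers were present, with MYOD1, the lineage's master regulator, at 204 ± 21.7 CPM (SD, n = 4) in vehicle and 108 ± 3.72 CPM in treated libraries, where CPM is the usual depth-scaled read count. All 6 muscle markers examined were lower in treated libraries at an edgeR adjusted p under 0.05, as were 34.0% of all tested genes. MYOG, 1 of the 6, passed the count minimum only through the vehicle libraries. CHRNA1 fell only 1.31-fold, and its call was lost under a 1.5-fold minimum. Of 8 leukocyte markers, whose cells carry much class I, 4 had a row in the table and none reached the count minimum. Their summed level was 1.67 to 3.52 CPM in vehicle and 1.72 to 2.56 CPM in treated libraries. Of 4 endothelial markers, PECAM1 and VWF had a row and summed to at most 1.29 CPM in any library. These markers were near 0 in both groups. RNA per cell and the make-up of the culture cannot be told apart in bulk libraries.

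Class I genes were higher in treated cells, by very unequal amounts. TAP1 and HLA-B rose most, by 11-fold and 7.61-fold, NLRC5, HLA-C and HLA-E rose 5.61-fold, 4.96-fold and 3.44-fold, TAP2 and B2M rose 1.53-fold and 1.47-fold, and TAPBP did not pass the test. The test was edgeR's quasi-likelihood test over 12366 genes with Benjamini-Hochberg adjustment, and a gene was called at an adjusted p under 0.05. Of the 9 members, 8 were tested, 7 were called higher, 0 were called lower (0 also at an unadjusted p under 0.05, and 0 by DESeq2 and limma-voom) and HLA-F had too few counts. Over all tested genes 33.4% were called higher and 34.0% lower. Of the 8 tested members, every treated library lay above every vehicle library in 7, the same 7 that were called higher. Over all tested genes this held in 29.2% (3609 genes, beside 4125 called higher). It reads the same difference as the call and is no separate evidence. HLA-C, TAP1 and NLRC5 passed the count minimum only through the treated libraries, so these tallies describe the members and are no test of the list. The median log2 fold change of the 8 was 2.05, beside -0.001 over all tested genes.

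**Figure D1:**
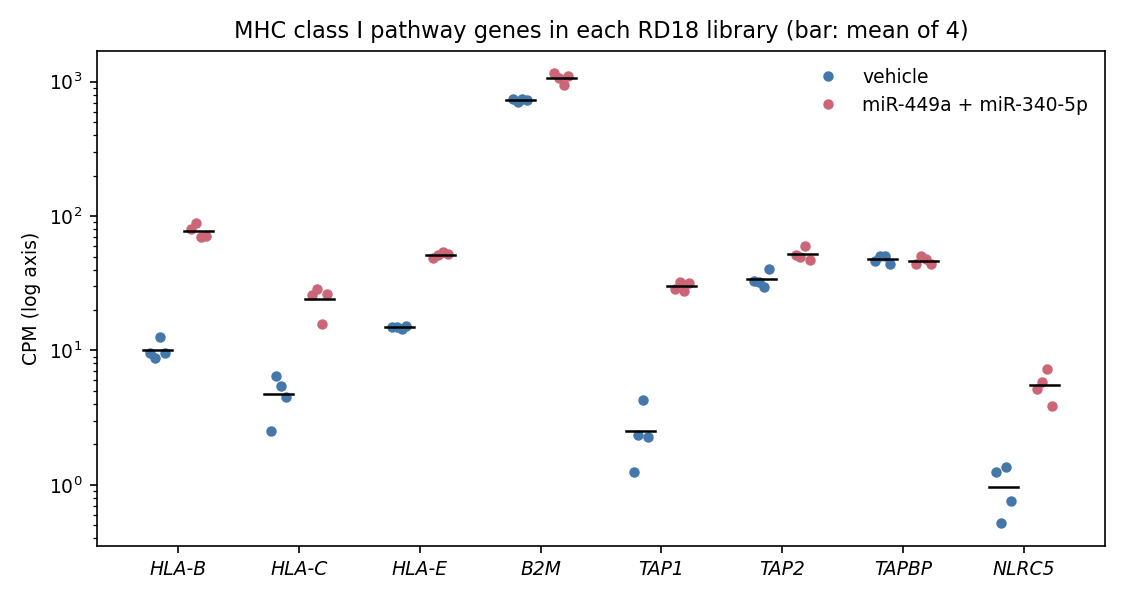
Level of each tested class I gene in every library, in CPM on a log axis, with vehicle libraries in blue, treated libraries in red and a bar at the mean of 4. The groups are separate for each gene but TAPBP, whose means were 47.8 and 46.5 CPM, and the gap is widest for TAP1, from 4.27 CPM in the highest vehicle library to 27.5 CPM in the lowest treated one.

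The heavy chain genes bind the peptide. HLA-B and HLA-C are classical, highly variable genes that present to T cells. They lie side by side on chromosome 6 (GRCh38, GENCODE 29 coordinates), HLA-B at 31269491 to 31357188 and HLA-C at 31268749 to 31272130, both on the minus strand. The annotated body of HLA-B reaches over 2640 bases of HLA-C on the same strand, and the handling of such reads is not given in the sources used here. In the longest coding transcript of HLA-B 2.00% of the 50-base windows also occur in a transcript of HLA-C, and 2.54% occur in any other gene. These genes also vary between people, and reads that differ from the reference can be lost, so the levels of these genes are uncertain.

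HLA-B measured 9.62, 8.80, 12.6 and 9.55 CPM in vehicle libraries 1 to 4 and 80.2, 88.9, 69.6 and 71.1 CPM in treated libraries 1 to 4. The lowest treated library stood 5.53-fold above the highest vehicle library. The mean went from 10.1 ± 1.67 to 77.5 ± 8.96 CPM (SD, n = 4), a log2 fold change of 2.93 (SE 0.13, edgeR adjusted p = 3.42e-28).

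HLA-C was the scarcer of the pair, with 6, 25, 24 and 18 counts in vehicle libraries and 145, 167, 46 and 82 in treated ones. Scaled for depth these were 2.51, 6.47, 5.39 and 4.52 CPM and 25.7, 28.5, 15.8 and 26.4 CPM. Treated library 3 was the lowest of its group and still 2.45-fold above the highest vehicle library. The log2 fold change was 2.31 (SE 0.21, edgeR adjusted p = 1.19e-14). With the counts of HLA-B and HLA-C summed into 1 feature, an alternative added after the data were seen, it was 2.76. HLA-C by itself passed the count minimum only through the treated libraries, and its p makes no allowance for that.

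HLA-E presents signal peptides of other class I heavy chains to natural killer cell receptors and sits further along chromosome 6 (30489467 to 30494205, plus strand). It measured 15.1, 15.02, 14.4 and 15.1 CPM in vehicle and 48.5, 51.7, 53.7 and 51.8 CPM in treated libraries. Both groups were tight, with coefficients of variation of 2.28% and 4.23%. HLA-E gave a log2 fold change of 1.78 (SE 0.13, edgeR adjusted p = 5.68e-19).

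HLA-F, a heavy chain gene of restricted expression at the telomeric end of the group (29722775 to 29738528, plus strand), was almost silent. It had 0 counts in every vehicle library and 1, 3, 0 and 0 counts in treated libraries 1 to 4. A total of 0 over the vehicle group allows a level of up to 0.204 CPM, by counting error only. It was left out by the count minimum, and a fit with no minimum gave an edgeR adjusted p of 0.15. At this depth no difference was detectable for HLA-F.

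Among the counts of these 4 heavy chain genes, HLA-E held the largest share in vehicle cells (50.3 ± 4.57%, SD, n = 4) and HLA-B in treated cells (50.5 ± 2.17%). The share of HLA-B was 29.1% to 38.9% in vehicle and 47.6% to 52.4% in treated libraries, and the share of HLA-E was 44.4% to 55.4% and 30.5% to 38.6%. The share of HLA-C averaged 15.7% and 15.6%. Shares depend on transcript length and on how reads of similar genes were assigned.

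The promoters of HLA-B and HLA-C are shown because these neighbours both rose and carry the boxes that class I enhancers are known for. The windows run from 250 bases before to 50 bases after the annotated start (RefSeq, GRCh38.p14), HLA-B at chr6:31357130-31357429 and HLA-C at chr6:31272043-31272342, both on the minus strand and printed 5′ to 3′. Capitals mark matches on either strand to GGGGATTCC (a kB site), TGACGC (the X2 box), CCAAT (the box bound by NFY), GAAANNGAA (the core of an interferon response element) and TTCNNNGAA (a GAS element), where N is any base.
HLA-B: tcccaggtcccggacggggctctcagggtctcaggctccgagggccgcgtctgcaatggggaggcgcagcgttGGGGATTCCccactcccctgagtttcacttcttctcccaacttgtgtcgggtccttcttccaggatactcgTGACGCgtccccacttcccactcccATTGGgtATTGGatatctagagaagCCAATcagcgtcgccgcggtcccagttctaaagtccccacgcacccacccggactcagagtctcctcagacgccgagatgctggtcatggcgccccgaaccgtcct
HLA-C: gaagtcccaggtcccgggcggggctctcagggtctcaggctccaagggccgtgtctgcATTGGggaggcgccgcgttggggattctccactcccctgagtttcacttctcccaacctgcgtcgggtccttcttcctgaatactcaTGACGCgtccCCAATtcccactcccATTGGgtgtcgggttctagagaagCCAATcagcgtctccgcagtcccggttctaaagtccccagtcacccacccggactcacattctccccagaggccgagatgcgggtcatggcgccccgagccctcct
Both windows hold TGACGC, followed downstream by CCAAT on the minus strand and again on the plus strand. The letters TGACGC occur in 9.14% and CCAAT in 34.6% of the 35116 promoter windows of the same length, and GGGGATTCC, matched in HLA-B alone among the 7 members with a window, in 0.285%. Neither window matched GAAANNGAA, which says only that those exact letters are not there. A match is a description of the sequence and not a measured binding site.

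B2M, the light chain gene on chromosome 15 (44711487 to 44718877, plus strand), was abundant from the outset and changed little. It measured 738, 709, 745 and 733 CPM in vehicle and 1156, 1072, 952 and 1104 CPM in treated libraries. The groups did not overlap, with the lowest treated library 1.28-fold above the highest vehicle library. This was a log2 fold change of 0.55 (SE 0.05, edgeR adjusted p = 1.57e-13).

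The heavy chains rose more than the light chain. A ratio of counts within a library needs no scaling between libraries, so the ratios of 6 pairs of genes were compared by exact two-sided permutation over 4 against 4 libraries, where 0.0286 is the smallest p the design allows, with adjustment over the 6. The genes were chosen with earlier results of these data known, and the p-values of the ratios make no allowance for that. HLA-B reads were 1.24% to 1.69% of B2M reads in vehicle and 6.45% to 8.29% in treated libraries, a 5.25-fold higher ratio (exact p = 0.0286, adjusted 0.0343). The ratio of HLA-C to B2M went from 0.649 ± 0.239% to 2.24 ± 0.420% (SD, n = 4, exact p = 0.0286, adjusted 0.0343). That of HLA-E to B2M went from 2.04 ± 0.0791% to 4.84 ± 0.602% (same exact p and adjusted p). Each of these ratios was higher in 4 of 4 treated libraries than in any vehicle library. The ratio of HLA-B to HLA-C overlapped between groups, at 1.36 to 3.83 in vehicle and 2.70 to 4.39 in treated libraries, and did not pass (exact p = 0.171). Vehicle library 1 held only 6 HLA-C counts, and without it the difference of that ratio was 0.80 log2 units and passed (exact permutation p = 0.0286).

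**Figure D2:**
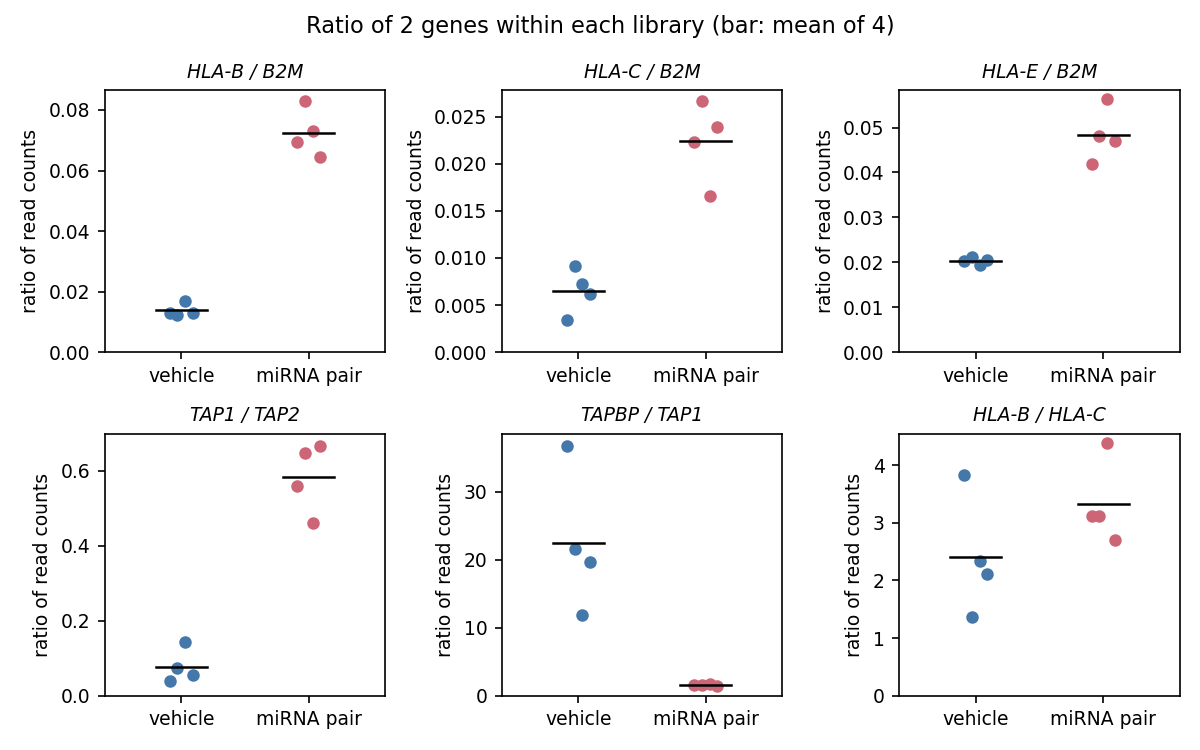
Ratio of the read counts of 2 genes within each library, 1 panel per pair, with vehicle libraries in blue, libraries of the microRNA pair in red and a bar at the mean of 4. The heavy chain to B2M ratios and TAP1 to TAP2 are separate and higher with the microRNA pair, TAPBP to TAP1 falls from a mean of 22.4 to 1.56, and HLA-B to HLA-C overlaps.

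TAP1 and TAP2 encode the paired subunits of the peptide transporter and lie within the class II part of the MHC, TAP1 at 32845209 to 32853978 and TAP2 at 32821833 to 32838780 on chromosome 6, both on the minus strand. TAP1 had 3, 9, 19 and 9 counts in vehicle libraries and 162, 188, 80 and 98 in treated libraries. These were 1.26, 2.33, 4.27 and 2.26 CPM against 28.8, 32.1, 27.5 and 31.5 CPM. The treated libraries were tight (coefficient of variation 7.27%), while the vehicle values rest on few reads and spread by 49.8%. The log2 fold change was 3.46 (SE 0.22, edgeR adjusted p = 1.81e-21), larger than that of 99.3% of all tested genes. TAP1 was among the tested genes only through the treated libraries, where it is high. Its p makes no allowance for that, and its rank is a description only.

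TAP2 measured 32.6, 32.1, 29.6 and 40.7 CPM in vehicle and 51.5, 49.5, 59.9 and 47.3 CPM in treated libraries. Vehicle library 4 came within 1.16-fold of the lowest treated library, without overlap. The log2 fold change was 0.62 (SE 0.11, edgeR adjusted p = 3.70e-06). Counts of TAP1 were 3.85% to 14.4% of those of TAP2 in vehicle and 46.0% to 66.7% in treated libraries, an 8.40-fold higher ratio (exact permutation p = 0.0286, adjusted 0.0343). The vehicle ratios rest on the few TAP1 reads given above. Annotated TAP1 overlaps PSMB9 (32844136 to 32859585, opposite strand) over its whole length of 8770 bases, and the strand setting of the counting is not given. In the longest coding transcript of TAP2 35.8% of 50-base windows also occur in transcripts of other genes, so part of its reads could have been left uncounted.

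TAPBP encodes tapasin, which bridges the transporter and the empty class I molecule, and lies at the centromeric end of the extended class II region (33299694 to 33314387, minus strand). It measured 46.0, 50.2, 50.8 and 44.2 CPM in vehicle and 44.0, 50.2, 48.2 and 43.8 CPM in treated libraries. The ranges of the groups overlapped. The log2 fold change was -0.04 (SE 0.10, edgeR adjusted p = 0.742), and it was 0.01 with upper-quartile scaling and 0.10 with library size alone. Read counts of TAPBP were 11.9 to 36.7 times those of TAP1 in vehicle cells and 1.39 to 1.75 times in treated cells (exact permutation p = 0.0286, adjusted 0.0343). Here too the vehicle ratios rest on few TAP1 reads.

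The promoters of TAP1, TAPBP and B2M are shown because all 3 hold the interferon response element core in tandem, while the genes differed in response (11-fold, not called and 1.47-fold). The TAP1 window is chr6:32853655-32853954 on the minus strand, the TAPBP window chr6:33314029-33314328 on the minus strand and the B2M window chr15:44711267-44711566 on the plus strand (RefSeq, GRCh38.p14), with capitals as above.
TAP1: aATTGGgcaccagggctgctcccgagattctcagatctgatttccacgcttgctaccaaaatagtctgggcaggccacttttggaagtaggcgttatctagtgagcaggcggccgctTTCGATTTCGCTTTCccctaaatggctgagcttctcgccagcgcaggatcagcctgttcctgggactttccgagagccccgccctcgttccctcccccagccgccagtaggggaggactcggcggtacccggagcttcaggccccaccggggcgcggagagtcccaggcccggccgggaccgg
TAPBP: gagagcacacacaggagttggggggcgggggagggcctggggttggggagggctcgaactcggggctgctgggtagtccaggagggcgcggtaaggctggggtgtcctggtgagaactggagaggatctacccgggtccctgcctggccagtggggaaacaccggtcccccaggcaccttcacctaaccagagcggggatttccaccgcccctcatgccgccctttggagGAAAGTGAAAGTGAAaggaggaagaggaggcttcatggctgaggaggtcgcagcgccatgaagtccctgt
B2M: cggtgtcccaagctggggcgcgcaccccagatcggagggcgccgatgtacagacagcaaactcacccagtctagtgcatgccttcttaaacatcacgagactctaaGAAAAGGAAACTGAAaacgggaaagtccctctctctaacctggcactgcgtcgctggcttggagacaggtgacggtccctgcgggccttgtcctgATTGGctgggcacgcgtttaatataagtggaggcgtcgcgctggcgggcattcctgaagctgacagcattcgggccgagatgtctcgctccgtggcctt
Each holds 2 overlapping matches to GAAANNGAA, read on the minus strand in TAP1 and on the plus strand in the others. They begin 133 and 127 bases before the annotated start in TAP1, 144 and 138 bases before it in B2M, and 20 and 14 bases before it in TAPBP. Of the 7 members with a promoter window, 5 matched this core (HLA-F, B2M, TAP1, TAP2 and TAPBP), as did 8.11% of all windows. A second annotated start of TAP1 has a window with 1 match to TTCNNNGAA, letters that 7.66% of all windows hold.

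NLRC5, the class I co-activator on chromosome 16 (56989485 to 57083531, plus strand), was the rarest of the tested members. It had 3, 2, 6 and 3 counts in vehicle libraries and 29, 34, 21 and 12 in treated libraries. In CPM these were 1.26, 0.518, 1.35 and 0.754 against 5.15, 5.80, 7.23 and 3.86, so the lowest treated library stood 2.87-fold above the highest vehicle library. The log2 fold change was 2.49 (SE 0.41, edgeR adjusted p = 3.84e-07), with the widest error among the tested members. NLRC5 was among the tested genes only through the treated libraries, where it is high, and its p makes no allowance for that.

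Other factors known to act at class I promoters moved in both directions. Of 14 tested regulators, 7 rose, 3 fell and 4 were not called, the median log2 fold change being 0.32, beside 33.4% of all tested genes called higher and 34.0% lower. This list was shortened by 1 gene after its values were seen, so its counts are a description of the genes left on it. The factors of interferon signalling were the ones that rose most: IRF9, a subunit of the complex that answers type I interferon, had 12 counts over the vehicle group and 201 over the treated group (log2 fold change 3.73, SE 0.37, edgeR adjusted p = 2.15e-13) and passed the count minimum only through the treated libraries. IRF1, which binds class I and TAP1 promoters, went from 7.62 ± 2.10 to 65.5 ± 4.48 CPM, 8.58-fold (SD, n = 4). STAT2, which joins IRF9 in that complex, rose 5.54-fold and IRF2 2.63-fold. RELA, the p65 subunit of NF-kB, rose 1.65-fold and NFKB1, its usual partner, fell 1.27-fold, a call lost with library size alone (log2 fold change -0.20, edgeR adjusted p = 0.0952).

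The enhanceosome on which NLRC5 docks showed no common direction. Among its RFX subunits, RFXANK rose 1.58-fold, RFX5 measured 14.5 ± 2.70 and 17.04 ± 3.52 CPM (SD, n = 4, edgeR adjusted p = 0.311) and RFXAP 3.72 ± 3.31 and 2.42 ± 0.530 CPM (adjusted p = 0.104 by edgeR). Single libraries decided the value of RFXAP: its log2 fold change of -0.76 became -0.03 without vehicle library 4 (adjusted p = 0.961), while it passed as lower without vehicle library 1 (0.0396) or 2 (0.0207). NFYC, of the CCAAT-binding complex, fell 2.53-fold, while NFYA and NFYB did not pass (edgeR adjusted p = 0.0973 and 0.206). NFYA passed as lower without vehicle library 2 (adjusted p = 0.0385). CREB1, which binds the X2 box, rose 1.35-fold and its relative ATF1 fell 2.48-fold. CIITA, the class II counterpart of NLRC5, was not analysed here.

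**Figure D3:**
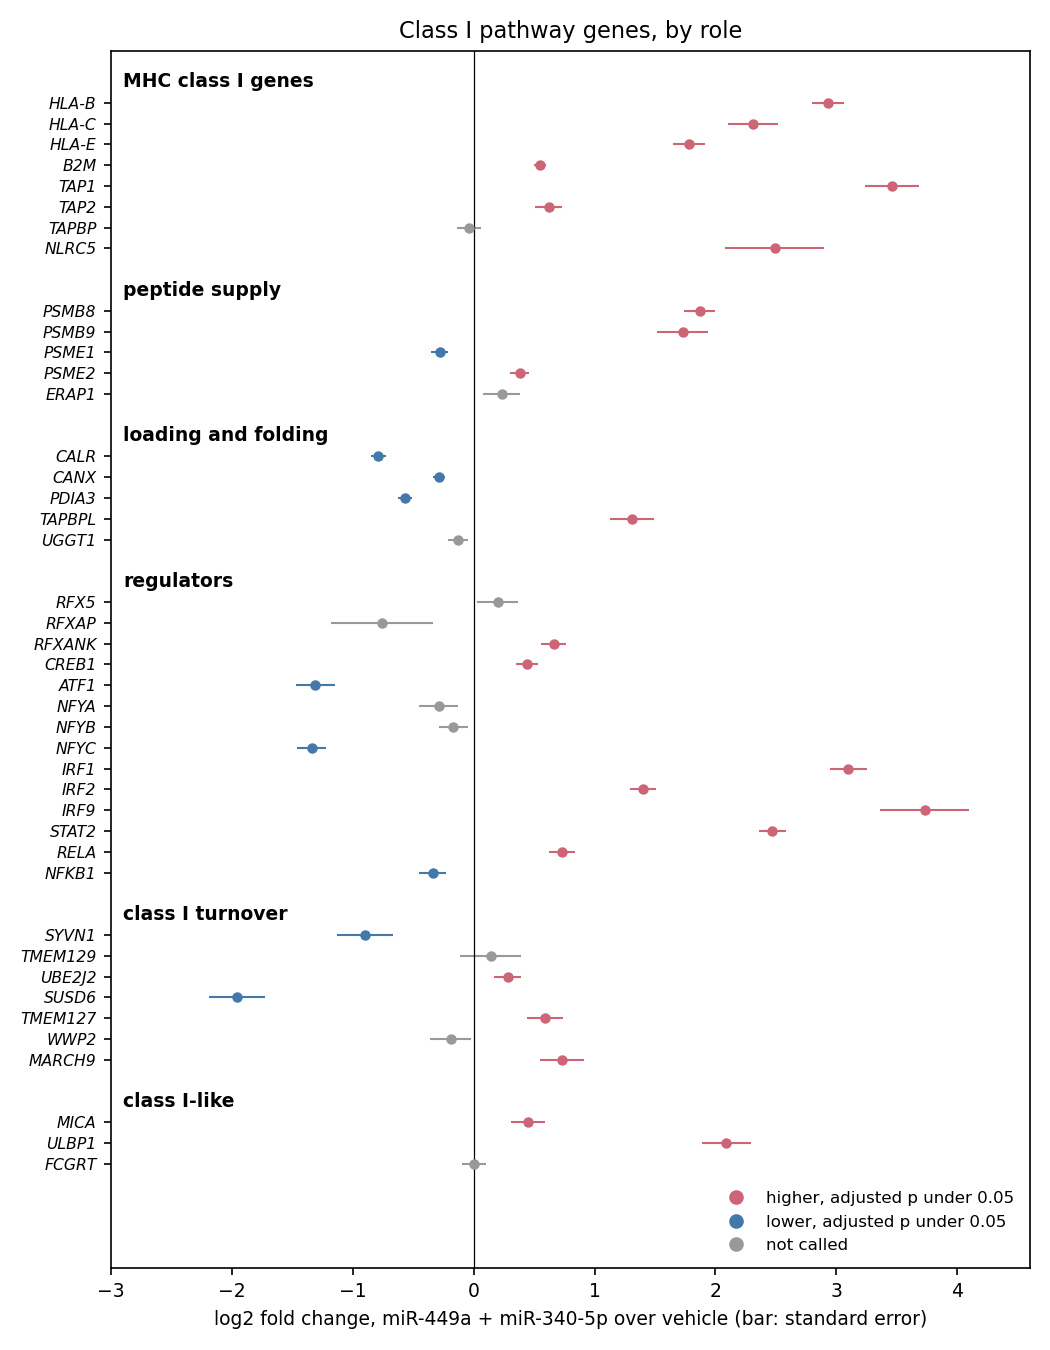
Log2 fold change of the tested class I genes and of 5 pathway lists, treated over vehicle, with points coloured by the call and bars of 1 standard error. The class I genes and the interferon factors lie mostly to the right of 0, up to 3.73 for IRF9, while the chaperone genes CALR, CANX and PDIA3 lie to the left, down to -0.79.

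Peptide supply genes moved in both directions, with immunoproteasome genes among those that rose. Of 5 tested genes of peptide supply, 3 rose, 1 fell and 1 did not pass (median log2 fold change 0.38). These counts stand beside 33.4% of all tested genes called higher and 34.0% lower. Under a 1.5-fold minimum 2 of the 5 stayed called higher and 0 lower. The immunoproteasome subunit genes PSMB8 and PSMB9, neighbours of TAP1, went from 16.4 ± 3.61 to 60.8 ± 7.03 CPM and from 5.68 ± 1.74 to 18.3 ± 0.920 CPM (SD, n = 4), 3.67-fold and 3.31-fold. PSMB10, the third such subunit, had 10 and 21 counts in all and was not tested. The activator subunit genes PSME1 and PSME2 went opposite ways, 1.21-fold lower and 1.30-fold higher, and the fall of PSME1 was lost with library size alone (adjusted p = 0.0674). ERAP1, an aminopeptidase that trims peptides, did not pass (edgeR adjusted p = 0.187), but passed as higher with library size alone (0.0366), and ERAP2 was not tested.

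Calreticulin, calnexin and ERp57 genes fell. Of 5 tested genes of loading and folding, 3 fell, 1 rose and 1 did not pass (median -0.29). Among all tested genes 34.0% were called lower and 33.4% higher. Under a 1.5-fold minimum 1 of the 5 stayed called lower and 1 higher. CALR, encoding calreticulin, went from 594 ± 18.8 to 343 ± 20.1 CPM (SD, n = 4), 1.73-fold lower. PDIA3, encoding ERp57, fell 1.49-fold and CANX, encoding calnexin, 1.22-fold. TAPBPL, which encodes the tapasin relative TAPBPR, rose from 9.18 ± 2.40 to 22.4 ± 2.38 CPM, 2.49-fold. UGGT1 did not pass (edgeR adjusted p = 0.174). TAPBPL and TAPBP, relatives in the peptide-editing step, thus measured a log2 fold change of 1.31 (SE 0.18) and -0.04 (SE 0.10), a difference that was not tested.

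Genes that remove class I from the surface or the endoplasmic reticulum were mixed. Of 7 tested, 3 rose and 2 fell (median 0.14), shares near those over all tested genes (33.4% higher and 34.0% lower). SUSD6, part of a complex that leads class I to degradation, fell 3.88-fold, and its partners TMEM127 and WWP2 were 1.5-fold higher and not called (edgeR adjusted p = 0.33). SYVN1, a ubiquitin ligase of the endoplasmic reticulum, fell 1.86-fold and MARCH9, a membrane ubiquitin ligase, rose 1.66-fold. UBE2J2 rose 1.21-fold (edgeR adjusted p = 0.02), a call lost without vehicle library 1 (0.121) or 3 (0.08) or treated library 3 (0.101).

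Genes that share the class I fold and class II genes gave few tested members. Of 3 tested class I-like genes, ULBP1, a ligand of the activating receptor NKG2D, rose from 4.96 ± 0.600 to 21.2 ± 1.86 CPM (SD, n = 4), 4.27-fold, MICA, another NKG2D ligand, rose 1.37-fold and FCGRT did not pass (edgeR adjusted p = 0.996). HFE, a regulator of iron uptake, and MR1, which presents vitamin B metabolites, were below the count minimum. HFE had 48 counts over the vehicle group and 21 over the treated group and was called lower in each of the 8 alternatives that tested it, among them DESeq2 (adjusted p = 0.02, range 0.00225 to 0.0254). MR1 had 12 and 56 counts and was called higher in each of the 7 that did (DESeq2 adjusted p = 0.00814, range 0.000495 to 0.00814). Of 3 tested genes of the class II list, HLA-DPB1 and HLA-DMA did not pass (edgeR adjusted p = 0.202 and 0.569), with 32 and 57 counts and 46 and 47 counts over the vehicle and treated groups. CTSS, a lysosomal protease of class II processing, rose from 7.36 ± 1.59 to 112 ± 3.73 CPM (SD, n = 4), 14.7-fold. CD74, the class II invariant chain gene, had 1 count in each group.

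Levels can be set between genes only per length, here as CPM per kilobase of the longest annotated transcript. In vehicle cells B2M stood first at 304 ± 6.51 and TAPBP second at 12.7 ± 0.851 (SD, n = 4). HLA-B at 6.55 ± 1.08, TAP2 at 5.94 ± 0.844 and HLA-E at 5.72 ± 0.130 had ranges that overlapped. HLA-C at 2.51 ± 0.892 overlapped with TAP1 at 0.854 ± 0.426, and NLRC5 came last of the tested genes at 0.142 ± 0.0583. With the microRNA pair the order per kilobase was B2M at 446 ± 36.0, HLA-B at 50.1 ± 5.79 and HLA-E at 19.8 ± 0.837, each apart from the next. Then came HLA-C at 12.8 ± 3.001, whose range overlapped with those of TAPBP at 12.4 ± 0.838, TAP1 at 10.1 ± 0.736 and TAP2 at 9.16 ± 0.970. NLRC5 was at 0.808 ± 0.205. TAP1 thus stood below TAP2 in every vehicle library, and the 2 ranges overlapped in treated libraries.

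Of the 9 members, 7 lie in the MHC region of chromosome 6. Between the outer ends of HLA-F and TAPBP (29722775 to 33314387), 6 members, 5 genes of the other lists and 64 other genes were tested. Of the 6 members 5 were called higher, with a median log2 fold change of 2.05. Of the 64 other genes 19 rose and 20 fell, and the median was -0.04. These shares of 29.7% and 31.2% stand beside 33.4% and 34.0% over all tested genes.

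**Figure D4:**
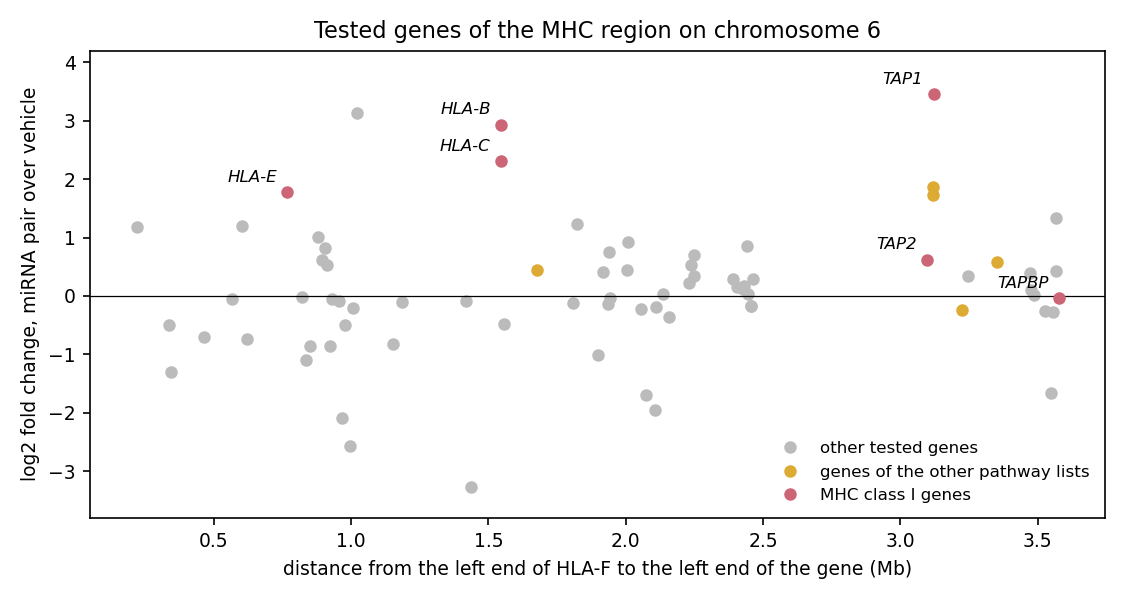
Log2 fold change of the 75 tested genes of the MHC region against the distance of their left end from that of HLA-F, with class I genes in red, genes of the other pathway lists in yellow and all others in grey. The grey points scatter on both sides of 0 (from -3.27 to 3.13), while HLA-E, HLA-B, HLA-C, TAP2 and TAP1 lie above it and TAPBP on it.

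The transfected microRNAs pair through their seeds, bases 2 to 8, which are shown in capitals because the search for matching words rests on them (RefSeq mature sequences).
miR-449a: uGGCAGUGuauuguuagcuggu
miR-340-5p: uUAUAAAGcaaugagacugauu
The matching words are CACTGCC and CTTTATA. In the longest annotated 3′ untranslated region of each gene (GENCODE 29), CACTGCC occurred in TAPBP and NLRC5. Matches to CTTTATA are shown for B2M and TAP2, which are not all the members that hold this word. Of 10515 tested genes with such a region, 17.7% hold CACTGCC, 19.8% hold CTTTATA and 33.2% hold either. TAPBP, the only tested member that was not called, is also the only one with CACTGCC more than once, at chr6:33301746-33301752 and chr6:33300198-33300204 (minus strand). NLRC5, with the word at chr16:57083347-57083353, rose. The words, in capitals, are shown with the bases around them.
TAPBP, first: gggcactCACTGCCatcctgtgga
TAPBP, second: gcgctggagcCACTGCCtagttcttca
NLRC5: gggtagggggCACTGCCaagacaataa
B2M: acatgatcttCTTTATAattctacttt
TAP2: tcttattaagCTTTATAtctgctacct
HLA-B and TAP1, the most raised members, have short regions of 429 and 370 bases, beside 2066 bases in TAPBP and a median of 1450 bases over the tested genes, and a longer region has more places for a word. Whether any of these words had a part in the levels was not tested.

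Outside the pathway lists, the genes whose profile over the 8 libraries came closest to the mean profile of the tested members were IFT81, HIP1R, KDM5B, DDR2 and TIMP2. Likeness was the root mean square distance in log2 CPM, taken relative to the vehicle mean, among 10706 genes averaging at least 5 CPM. The distances were 0.084 to 0.109 log2 units. IFT81, a gene of transport within cilia, went from 45.4 ± 7.41 to 150 ± 5.10 CPM (SD, n = 4). These genes share with the members the step between 2 groups of libraries, and the measure mostly reads the size of that step.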

How the data were processed

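Polyadenylated RNA of 8 RD18 libraries was sequenced from stranded mRNA libraries on a HiSeq4000, per the labels. The authors deposited raw read counts by gene symbol, with a column for each library, and columns were matched to samples through the code in each description. Tools named in the submitters' processing notes are HTSeq 0.5.3p3, TopHat2 2.0.13, DESeq2 and SAMtools 0.1.19.24, with GRCh38 as the build. Annotation, strand setting and the handling of multiply aligned reads are not stated in those notes or in the labels.

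Genes were kept by edgeR's filterByExpr (minimum count 10, minimum total 15), which left 12366 genes. After TMM scaling, edgeR 4.0.16 (R 4.3.3) compared the groups by its two-sided quasi-likelihood test (glmQLFTest after a robust glmQLFit, with no covariates), adjusted over all tested genes. A standard error is the size of the log2 fold change over the square root of F. CPM uses effective library sizes. The tests were tried on simulated counts first. Alternatives were DESeq2 1.42.0, limma-voom (limma 3.58.1), other scalings and filters, a replicate block, removal of mitochondrially encoded genes, a 1.5-fold minimum and leaving out each library. Of 7 planned within-library ratios, HLA-F to B2M could not be formed because of counts of 0, which left 6. Total counts of 2567737 to 5569342 limit precision for genes under a few CPM, and limits for counts of 0 cover counting error only. Gene positions and 3′ untranslated regions came from GENCODE 29, and promoter and microRNA sequences from RefSeq (GRCh38.p14). Of the 9 members, 7 had a promoter window.

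Same-numbered libraries of the 2 groups deviated together with correlations of only 0.013 to 0.056, so numbers were not taken as pairs. Vehicle libraries 1, 2 and 3 nevertheless correlated best with the treated library of the same number, and vehicle library 4 with treated library 2. A replicate block was therefore kept as an alternative. The members and lists were chosen with earlier results of these data known. The text names every member, genes of the lists, and the 5 genes outside them with the nearest profile. A regulator was taken off its list after the values were seen, and it and one site are not reported here.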

Additional observations from a re-analysis of the deposited data

Results flagged for a closer look

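HLA-E in vehicle library 3 stood apart from the other vehicle libraries, at 14.4 CPM beside 15.02 to 15.1 CPM, because the other 3 values lay unusually close together. Of 17 groups of 4 libraries checked over the members this was the only one, and chance flags about 1 in 20.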

How the results depend on the processing

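The 7 members called higher kept that call under each of 17 alternatives (scalings, filters, DESeq2, limma-voom, the replicate block, removal of mitochondrial genes and each library left out), and under a 1.5-fold minimum 6 did, with B2M below it. Log2 fold changes ran from 3.31 to 3.85 for TAP1, from 2.85 to 3.06 for HLA-B and from 2.27 to 2.75 for NLRC5. Library size as the only scaling moved all genes by a median of 0.138 log2 units. The sign of some values near 0 turned: TAPBP with upper-quartile scaling (0.0096) and library size alone (0.0984), UGGT1 with library size alone (0.0094), FCGRT with the 1 CPM filter (-0.0023) and limma-voom (-0.0075) and, as each library was left out, from -0.0596 to 0.0391, and TMEM129 as each library was left out (from -0.0754 to 0.3273). The cause was not tested. Of 774 values of list genes, 14 lost and 4 gained a call. HFE and MR1, below the count minimum, were called lower and higher in each of the 8 and 7 alternatives that tested them. With a replicate block for the ratios, 4 pairs allow no exact p under 0.125, so none could pass, at 2.39 for HLA-B to B2M, 1.85 for HLA-C to B2M, 1.24 for HLA-E to B2M, 3.07 for TAP1 to TAP2 and -3.74 for TAPBP to TAP1. The block changed no call of a member. The ratio of HLA-B to HLA-C ran from 0.30 to 0.80 log2 units as each library was left out. Low counts limit TAP1, NLRC5 and HLA-C in vehicle cells and leave HLA-F unmeasured.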
